A study of Cardamine hirsuta with 6 samples.

Results

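*ChWAG1* (CARHR044000) and *ChWAG2* (CARHR089410) are the *Cardamine hirsuta* genes for a pair of closely related protein kinases, and each of them held 1 reproducible binding peak of the transcription factor ChCUC1 in DAP-seq. The members described here are these 2 peaks, out of 2432 reproducible peaks in all. They were taken by gene identifier, as the study's peak annotation assigns them, together with the peaks that overlap them in the other deposited lists. The study presents both genes as direct targets of ChCUC1 in the developing leaf. Besides DAP-seq, it drew on ChIP-seq, on binding sites in the genes, on expression after ChCUC1 induction, and on mutants and reporter imaging. From knock-down of the *ChCUC* genes it concludes that they are needed for *ChWAG1* transcripts. That other evidence was not used here, and the values below give how far ChCUC1 exceeded the HaloTag control at these loci in vitro. A peak is called because it exceeds that control, so being above it is given as a description.

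WAG kinases belong to the AGCVIII family of plant protein kinases, as does PINOID. In *A. thaliana* these kinases phosphorylate PIN-FORMED (PIN) proteins, which carry the hormone auxin out of cells, and the phosphorylation affects both the transport activity of PIN proteins and the side of the cell on which they sit. ChCUC1 is a NAC transcription factor of the CUP-SHAPED COTYLEDON family, whose members mark boundaries between organs and, in leaf margins, the sinuses beside outgrowing teeth or leaflets.

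In DAP-seq a tagged transcription factor made in vitro is incubated with sheared, adaptor-ligated genomic DNA, and the fragments that it holds are sequenced, so the assay measures binding to DNA without chromatin. The series has 3 samples with HaloTag-ChCUC1, made by translation in wheat germ extract, and 3 samples with HaloTag alone as the control. The DNA of all samples came from the Oxford accession of *C. hirsuta*. The protocol names rosette leaves as the source of that DNA, whereas the tissue label reads seedlings, and no cell type or living tissue was assayed.

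Of the 4 peak lists, the reproducible list came from the pooled ChCUC1 libraries, and the other 3 were each called on 1 ChCUC1 library against the pooled Halo control. The whole-library list held 4778 peaks and used all reads of its library. The pr1 list, with 3753 peaks, and the pr2 list, with 3253 peaks, used pseudoreplicates, which are random parts of the reads of a library. The pileup at each summit, which is the number of ChCUC1 fragments that cover it, was recovered as a whole number for 100% of the peaks in every list, together with the pileup expected from the Halo control. At 913 peaks with a summit within 20 bp in every list, the whole-library pileup plus 2 times each pseudoreplicate pileup came to a median of 1.01 times the pileup of the reproducible list (quartiles 0.980 and 1.04). By this measure the 3 single-library lists are separate libraries that together make up the pool, so they are replicates of each other that share 1 control, while the reproducible list is no further replicate. By their names, the whole-library and pr2 lists carry the same run number and the pr1 list another. A trait seen in pr1 alone thus cannot be told apart from a difference between runs. The lowest expected pileup on the chromosomes was 65.4 fragments in the reproducible list, 22.7 in the whole-library list, 15.8 in the pr1 list and 5.81 in the pr2 list. It need not follow the number of reads alone, since peak widths also differed. Their medians were 424 bp (whole-library), 579 bp (pr1) and 196 bp (pr2), and number of reads and fragment length were not separated here. The median summit pileup was 65, 49 and 20 fragments in the same order, so values from the pr2 list are the least precise.

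At *ChWAG2*, 501 ChCUC1 fragments covered the summit of the peak, against 86.6 expected from the Halo control. The peak lay on chromosome 3 from 4845149 to 4845833, with the summit at 4845400, in the exon of a gene with a single exon. Positions are those of the deposited lists, and no source used here names their genome build. The fold enrichment that the authors' caller gives for this peak was 5.73, the −log10 of its p-value was 204 and that of its q-value 200.2. Dividing the pileup by the expected pileup gave a ratio of 5.79, with an exact 95% Poisson interval of 5.29 to 6.32. This interval, like those that follow, covers only the counting error of the ChCUC1 fragments and not that of the control.

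At *ChWAG1* the enrichment was lower, with 307 ChCUC1 fragments at the summit and 75.9 expected. The peak lay on chromosome 1 from 25209815 to 25210304, with the summit at 25210048, and this gene too has a single exon that holds the peak. Its fold enrichment was 4.01, with a −log10 p of 88.1 and a −log10 q of 84.8. The ratio of pileup to expected pileup was 4.05 (3.61 to 4.53). Both peaks had the highest score that the reproducible list gives, 1000. Weaker peaks had it too, such as that at the match of *ABCB4*, with a fold enrichment of 2.75. The score thus does not set the *ChWAG* peaks apart, and its share among all reproducible peaks was not computed here.

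Each of the peaks was called in all 3 single-library lists, as were 62.5% of all reproducible peaks. At *ChWAG2* the whole-library list had 189 fragments against 29.3 expected, the pr1 list 115 against 23.3, and the pr2 list 33 against 7.75. The ratios were 6.45 (5.56 to 7.44), 4.93 (4.07 to 5.92) and 4.26 (2.93 to 5.98) in that order of lists, and averaged 5.21 ± 1.12 (SD, n = 3). The whole-library value stood highest of the 3. At *ChWAG1* the corresponding pileups were 120 against 26.7, 74 against 18.0, and 21 against 6.24. Their ratios were 4.50 (3.73 to 5.38), 4.11 (3.22 to 5.15) and 3.36 (2.08 to 5.14), with an average of 3.99 ± 0.58 (SD, n = 3). The whole-library value was the highest here too, and the intervals of the 3 libraries overlapped at each of the 2 genes. The weakest single call was that of *ChWAG1* in the pr2 list, with a −log10 q of 2.89, whereas the −log10 q of the other 5 calls ranged from 7.75 to 81.5.

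**Figure D1:**
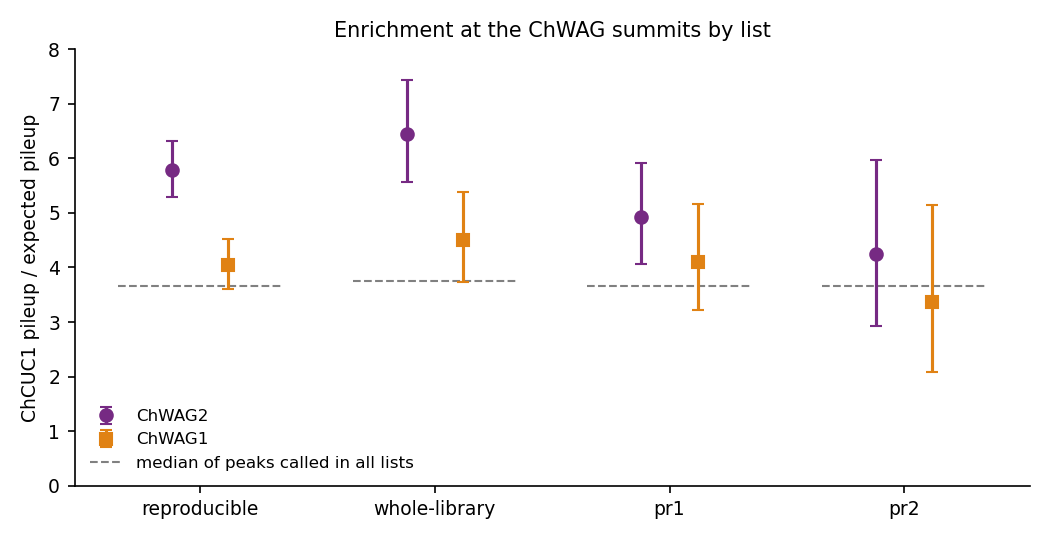
ChCUC1 pileup at the summit divided by the pileup expected from the Halo control (vertical axis, no unit) for the *ChWAG2* and *ChWAG1* peaks in the 4 peak lists (horizontal axis). Bars are exact 95% Poisson intervals of the ChCUC1 pileup, and dashed lines give the median over the 1519 reproducible peaks called in every list. The *ChWAG2* ratio was above the *ChWAG1* ratio in each list, and the intervals of the 2 genes overlapped in the pr1 and pr2 lists.

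The ratio was higher at *ChWAG2* than at *ChWAG1* in each list. The difference exceeded counting error only in the lists with the most fragments at the 2 summits. In the reproducible list the *ChWAG2* ratio was 1.43 times the *ChWAG1* ratio (exact conditional 95% interval 1.24 to 1.65), and in the whole-library list it was also 1.43 times as high (1.13 to 1.82). In the pr1 list the quotient was 1.201 (0.889 to 1.63) and in the pr2 list 1.27 (0.710 to 2.30). Within these lists the fragments counted could not tell the 2 loci apart. Taken within each library, the quotient averaged 1.30 ± 0.12 (SD, n = 3) and was above 1 in 3 of 3 libraries. An exact sign-flip permutation test of its logarithm, which was not planned, gave a two-sided p of 0.25. This is the smallest that 3 libraries allow, so the test cannot decide whether the 2 loci differ. The libraries also share their control. The expected pileup was also higher at *ChWAG2*, by 1.14 times in the reproducible list, 1.10 times in the whole-library list, 1.29 times in the pr1 list and 1.24 times in the pr2 list. In the reproducible list, 16.7% of peaks had an expected pileup as high as that of *ChWAG2*, and 53.3% one as high as that of *ChWAG1*. In the pr1 list the expected pileup of *ChWAG2* stood out more, with 2.48% of peaks as high. The expected pileup of every list came from the same pooled Halo control, so these values are not repeated measurements of it. The higher enrichment at *ChWAG2* was therefore measured over the higher control signal of the pair. Whether reads are shared between the 2 related genes was not tested, since no sequence of them was used here.

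At each of the 2 genes the whole-library list had the highest ratio, and at *ChWAG2* the amount depended on the scaling. At *ChWAG2* the whole-library ratio was 1.31 times that of the pr1 list (1.03 to 1.66) and 1.52 times that of the pr2 list (1.04 to 2.27). The pr1 value over the pr2 value was 1.16 (0.781 to 1.76). The pileup was also divided by the lowest expected pileup of its list alone. The whole-library value was then 1.14 times that of pr1 (0.902 to 1.45), within counting error, and 1.47 times that of pr2 (1.01 to 2.19). Over all 1519 reproducible peaks called in every list, the medians of these 3 quotients were 1.03, 1.01 and 0.977, so the lists did not differ in this way in general. The quotients of the whole-library ratio at *ChWAG2* lay above the upper quartiles of 1.13 for pr1 and 1.15 for pr2. At *ChWAG1* the same quotients were 1.10 (0.813 to 1.48), 1.34 (0.837 to 2.24) and 1.22 (0.743 to 2.09), none of which left the range of counting error. The 1.34 for whole-library over pr2 also lay above the upper quartile of 1.15. Divided by the lowest expected pileup alone, the *ChWAG1* quotients were 1.13, 1.46 and 1.30, close to the 1.14, 1.47 and 1.28 of *ChWAG2*.

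The place of the peaks among all others moved with these values. By fold enrichment, 5.47% of the reproducible peaks were as high as the *ChWAG2* peak or higher (exact 95% binomial interval 4.60 to 6.45%). For *ChWAG1* the share was 23.4% (21.7 to 25.1%). These intervals treat the complete list as a random sample of peaks and leave out the error of the *ChWAG* values themselves. In the whole-library, pr1 and pr2 lists the shares by fold enrichment were 1.95%, 7.14% and 14.6% for *ChWAG2*. For *ChWAG1* they were 8.94%, 14.4% and 32.8%. Among the 1519 peaks called in every list, the share with a ratio as high as that of *ChWAG2* came to 6.12% (whole-library), 18.6% (pr1) and 31.8% (pr2). For *ChWAG1* these shares were 27.8%, 35.2% and 63.2%, so in the pr2 list the *ChWAG1* value was below the median of 3.65. The *ChWAG2* value stood above the median of the same peaks in every list, by 1.58 times in the reproducible list, 1.72 times in the whole-library list, 1.35 times in the pr1 list and 1.17 times in the pr2 list.

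**Figure D2:**
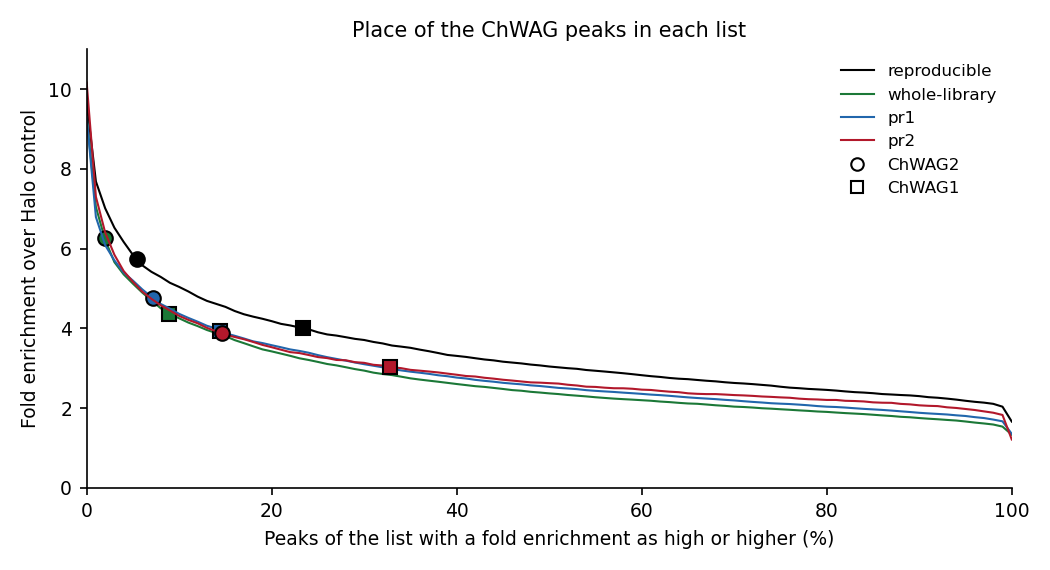
Fold enrichment over the Halo control (vertical axis, as deposited) against the percentage of peaks in the list that are as high or higher (horizontal axis), 1 line per peak list. Circles mark *ChWAG2* and squares *ChWAG1*, in the colour of the list. *ChWAG2* lay farther to the left, and so nearer to the highest peaks, than *ChWAG1* on every line.

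The peaks next to them in the ranking, chosen for their fold enrichment, are given for reference. The 3 reproducible peaks just above *ChWAG2* were assigned to CARHR166150, CARHR030400 and CARHR065400, at 5.74, 5.74 and 5.73. The 3 just below it were assigned to CARHR236370, CARHR050820 and CARHR165120, at 5.73, 5.72 and 5.72. Around *ChWAG1*, the 3 above were CARHR078280, CARHR086700 and CARHR027360, at 4.01 each, and the 3 below were CARHR146040, CARHR251830 and CARHR141170, at 4.01, 4.00 and 4.00. All 12 of these peaks were called in each single-library list, and 3 of them lay in exons, the others at promoters, introns, gene ends or between genes.

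The summits of the 4 lists lay closer together at *ChWAG2* than at *ChWAG1*, with the reproducible list counted though it is no further replicate. For comparison, at 913 of the 2432 reproducible peaks each single-library list had a summit within 20 bp of the reproducible one. At *ChWAG2* the 4 summits fell within 8 bp, from 4845398 to 4845406, and the stretch covered by the peak in every list ran over 237 bp from 4845284 to 4845520. At *ChWAG1* the 4 summits spanned 57 bp, from 25210048 to 25210105, and the shared stretch ran over 189 bp from 25210004 to 25210192. The reproducible, whole-library and pr1 summits of *ChWAG1* lay within 2 bp of each other, and the pr2 summit, which rests on 21 fragments, stood apart from them. The stretches common to all lists are set by the pr2 peaks, which are narrow throughout that list (median width 196 bp).

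The *ChWAG2* peak was wider than the *ChWAG1* peak in every list. In the reproducible list it measured 685 bp, reaching 251 bp to the left of the summit and 433 bp to the right, and 12.7% of all reproducible peaks were as wide. The *ChWAG1* peak measured 490 bp, close to the median of 486.5 bp, with 233 bp to the left and 256 bp to the right. In the single-library lists the *ChWAG2* peak was 530, 777 and 237 bp wide in the whole-library, pr1 and pr2 lists, and the *ChWAG1* peak 493, 661 and 189 bp. The longer right side of *ChWAG2* was seen in the reproducible list and in the pr1 list, where it measured 429 bp against 347 bp on the left, while the sides were 273 and 256 bp in the whole-library list and 122 and 114 bp in the pr2 list. Of the 3 libraries, the uneven shape was thus seen in pr1 alone.

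**Figure D3:**
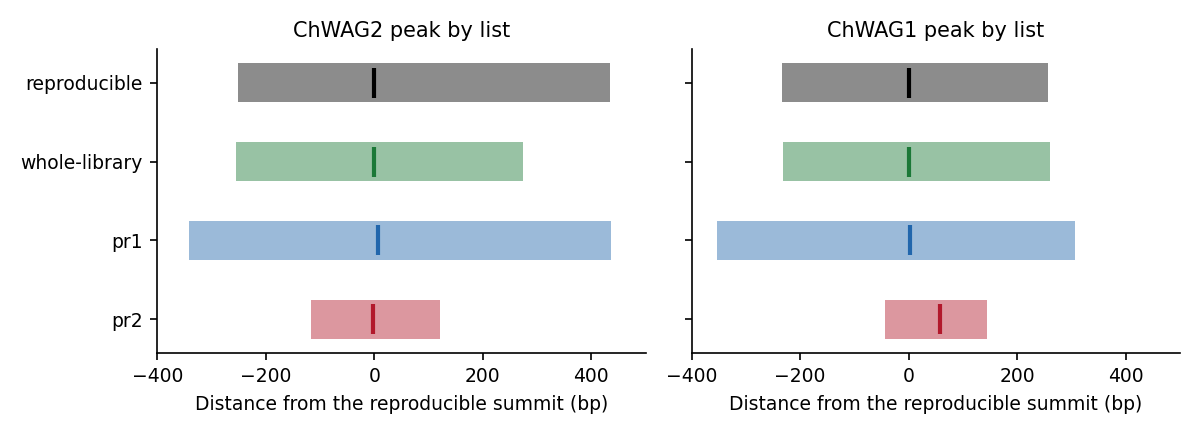
Extent of the *ChWAG2* (left) and *ChWAG1* (right) peaks in the 4 peak lists (rows), in bp from the summit of the reproducible peak. Bars span the called peak and vertical ticks mark its summit. The *ChWAG2* summits fell within 8 bp, whereas the pr2 summit of *ChWAG1* lay 57 bp from the reproducible one.

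Both peaks share a location that the choice of genes did not use, the exon of a gene with a single exon. Of the 1996 reproducible peaks to which the annotation used here assigns a gene, 33.6% lay in an exon and 178 peaks, or 8.92%, in the exon of a single-exon gene. Those 178 peaks had a median fold enrichment of 3.27, close to the 3.28 of all annotated peaks, so this location as such did not go with high enrichment. Among the 178, 14 were as high as *ChWAG2* or higher, which is 7.87% (4.37 to 12.8%). For *ChWAG1* there were 51, which is 28.7% (22.1 to 35.9%). These binomial intervals too leave out the error of the *ChWAG* values themselves. A further 435 reproducible peaks, each with a −log10 p of 26.4 or lower, were not annotated in the sources used here.

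The surroundings of the 2 genes differed. Within 50 kb of the *ChWAG2* summit were 2 other reproducible peaks, and 58.5% of the 2331 reproducible peaks on the 8 chromosomes had at least as many. Both of them lay within 10 kb, which held for 13.9% of the peaks. No other reproducible summit lay within 50 kb of *ChWAG1*, as for 19.6% of the peaks, and the nearest one, assigned to CARHR044110, was 51.7 kb away. The median distance to the nearest reproducible summit was 15.3 kb over all peaks, against 4.38 kb for *ChWAG2*.

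The closest peak to *ChWAG2* had a similar enrichment. Assigned to an exon of CARHR089400, it lay 4381 bp to the left, from 4840782 to 4841282, with 522 fragments against 88.5 expected and a fold enrichment of 5.84. Its single-library ratios were 5.61 (whole-library), 5.48 (pr1) and 6.18 (pr2), with an average of 5.76 ± 0.37 (SD, n = 3). This peak varied less between libraries than *ChWAG2* did, and the order of the 2 peaks changed with the library. The *ChWAG2* ratio was 1.15 times that of CARHR089400 in the whole-library list (0.932 to 1.42), 0.899 times in the pr1 list (0.689 to 1.17) and 0.688 times in the pr2 list (0.428 to 1.09). In the pooled data the quotient was 0.981 (0.866 to 1.11), and no list put the 2 peaks apart by more than counting error.

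On the other side, 5374 bp to the right of the *ChWAG2* summit, lay a weaker peak in an exon of CARHR089430, the match of the *A. thaliana* gene AT3G14360. It had 260 fragments against 70.1 expected and a fold enrichment of 3.67, and *ChWAG2* had 1.56 times its ratio (1.34 to 1.82). In the whole-library and pr1 lists *ChWAG2* was also higher, by 1.77 times (1.37 to 2.31) and 1.82 times (1.29 to 2.62). The pr2 list, with 33 fragments at *ChWAG2* and 27 at CARHR089430, gave 0.998 (0.582 to 1.72).

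Other peaks within 50 kb of the 2 genes appeared in the single-library lists only. Each had a lower fold enrichment than the *ChWAG* peak beside it in the same list. Some of them lay above the median of their list, which was 2.37 (whole-library), 2.53 (pr1) and 2.63 (pr2). Around *ChWAG2* the whole-library list had 3 such peaks, 27.0, 31.1 and 34.8 kb to the right of the summit, with fold enrichments of 2.17, 2.04 and 1.55, and the pr2 list had 1, at 14.7 kb to the right with 2.71. None of these 4 was called in another list. Around *ChWAG1*, a peak 19.4 kb to the left was called in the whole-library list with a fold enrichment of 2.45 and, 19.5 kb away, in the pr1 list with 2.44. The whole-library ratio was 2.51 (1.90 to 3.26) and the pr1 ratio 2.54 (1.81 to 3.45), so the value repeated between libraries although the peak was not in the reproducible list. A peak 14.8 kb to the left of *ChWAG1* had a fold enrichment of 1.72 in the whole-library list and was called in no other.

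**Figure D4:**
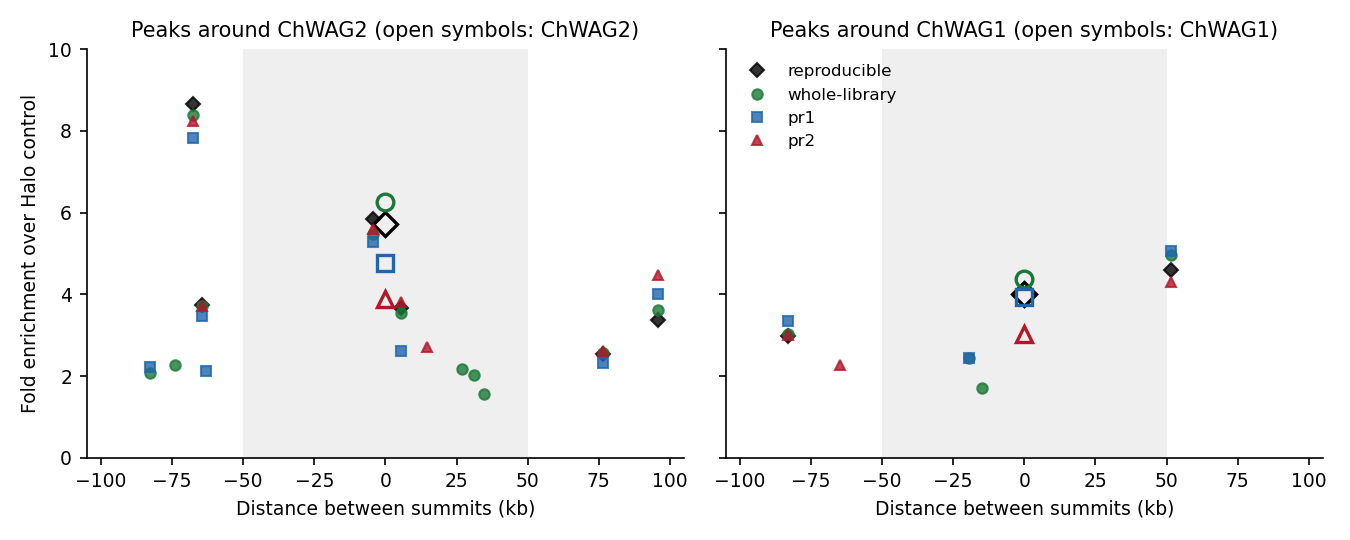
Fold enrichment over the Halo control (vertical axis, as deposited) of all peaks within 100 kb of *ChWAG2* (left) and *ChWAG1* (right), by the distance between summits in kb (horizontal axis). Symbols stand for the 4 peak lists, open symbols for the *ChWAG* peaks, and the shaded band for the 50 kb window. Peaks in all 4 lists flank *ChWAG2* at 4.38 and 5.37 kb, and no peak of the reproducible list falls in the band around *ChWAG1*.

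Other genes of PIN polarity and auxin transport with a peak had a lower fold enrichment than the *ChWAG* genes in the reproducible list. A list of 45 such genes and boundary genes, matched through *A. thaliana*, had 7 with a reproducible peak in the annotated set, the *ChWAG* genes included, and all 7 peaks lay in exons, as did 33.6% of the annotated peaks. Their median fold enrichment was 3.29, with the *ChWAG* genes in it, close to the 3.28 of all annotated peaks. In all, 1876 genes had an annotated peak. Their share of the genes of the genome was not computed here, so the counts of listed genes cannot be set against a background. Of the 16 kinases in the list, 4 had a peak, and 2 of these 4 are the *ChWAG* genes themselves. The others were the match of *UCN*, which encodes an AGCVIII kinase that restrains growth in ovule integuments of *A. thaliana*, and the match of *PHOT1*, which encodes a blue-light receptor with a kinase domain of the same family.

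The *UCN* peak, assigned to CARHR041220, came close to *ChWAG1*. It had 346 fragments against 87.5 expected and a fold enrichment of 3.92. Its single-library ratios were 3.86 (whole-library), 3.98 (pr1) and 4.36 (pr2), with an average of 4.07 ± 0.26 (SD, n = 3), next to the 3.99 ± 0.58 of *ChWAG1*. The order of the 2 peaks changed with the library. *ChWAG1* was higher in the whole-library and pr1 lists, at 4.50 and 4.11, and lower in the pr2 list, at 3.36. The *PHOT1* peak (CARHR149890) was lower, with 229 fragments against 75.9 expected, a fold enrichment of 2.99 and an average ratio of 3.19 ± 0.30 (SD, n = 3).

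The other classes of the list are small, and no difference between them was tested. The matches of *ABCB1* (CARHR131390) and *ABCB4* (CARHR142370), which encode membrane transporters that move auxin in *A. thaliana*, each had a peak, at fold enrichments of 3.29 and 2.75. Their single-library ratios averaged 3.23 ± 0.10 and 2.82 ± 0.67 (SD, n = 3 each). No annotated reproducible peak was assigned to any of the 8 *PIN* genes, to any of the 4 *AUX1* and *LAX* genes, which encode auxin importers, or to any of the 5 *NPY* genes, whose products act with the AGC kinases on PIN proteins. The same was true of *PID* and of the 4 listed genes for phosphatase subunits and for *GNOM*, a regulator of PIN recycling. Of the 5 boundary genes, only *KLU* (CARHR014110), which encodes a cytochrome P450 that promotes organ growth, had an annotated peak. Its fold enrichment was 3.24, and it was called in the whole-library and pr1 lists but not in the pr2 list. Since weaker peaks were not annotated here, a gene without an annotated peak may still have one with a −log10 p of 26.4 or lower. As the share of all genes with a peak was not computed, these absences are not read as a result about the classes.

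**Figure D5:**
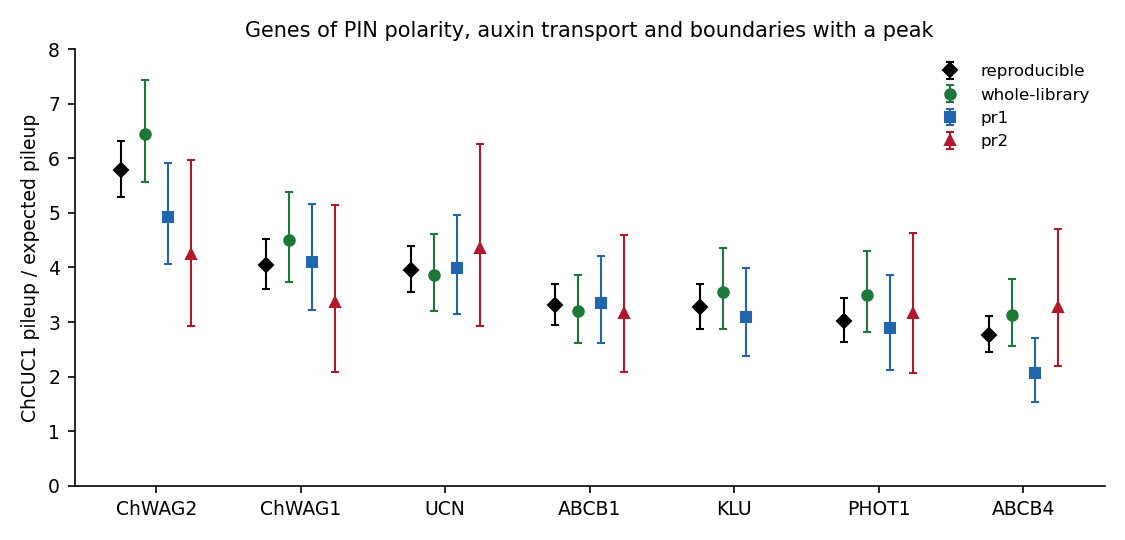
ChCUC1 pileup at the summit divided by the expected pileup (vertical axis, no unit) for the 7 listed genes with an annotated reproducible peak (horizontal axis), in the 4 peak lists. Bars are exact 95% Poisson intervals. *ChWAG2* had the highest reproducible ratio of the 7 genes, at 5.79, and *ABCB4* the lowest, at 2.77.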

How the data were processed

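Alignment and peak calling were done by the authors. Bowtie, MACS2 and bedtools are listed in the submitters' processing notes, which give neither versions nor a genome build. By the list names, duplicates were removed and peaks of single libraries were called against the pooled control at a p-value of 0.01. The deposited values used were the fold enrichment (a ratio), the −log10 of the p-value and q-value, the score of the reproducible list, and positions, written here from 1. The lists carry no replicate number.

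The pileup and its expectation were computed from the fold enrichment and the p-value, taking the fold enrichment as (pileup + 1)/(expected + 1) and the p-value as a Poisson upper tail. A whole pileup had to give the deposited −log10 p within a relative 0.0001; the recovery was tested on simulated data. Fragments come from PCR, so intervals cover counting error only. Overlap meant at least 1 bp. Genes, gene structure and *A. thaliana* matches came from the study's peak annotation, with no measured value taken from it.

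Python 3.11.15, pandas 2.3.3, NumPy 2.4.6, SciPy 1.17.1 and matplotlib 3.10.9 were used. Named were the *ChWAG* genes, neighbours within 50 kb and the nearest one, listed genes with a peak, and the 3 peaks above and below in rank. The members, the gene list and this rule were chosen with earlier results of these data known. Expression data of the study were not used here. The alternatives were other overlaps, thresholds, windows, ranks and lists.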

Additional observations from a re-analysis of the deposited data

How the results depend on the processing

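ChCUC1 and Halo libraries could not be paired, because no list shows which replicate it holds and all share 1 pooled Halo background. *ChWAG2* and *ChWAG1* were compared within each list, and so were paired by library in the single-library lists. Under the alternatives, 16 values stayed within the limits set for them, 17 moved and 1 became weaker. The weaker one was the whole-library over the pr1 ratio of *ChWAG2*, which came within counting error when scaled by the lowest expected pileup alone. Those that moved include the counts with 1 list left out. Those within the limits include the count of listed genes with a peak, 7 in the main setting. It fell to 6 for peaks called in each single-library list and to 5 at a fold enrichment of at least 3. Both *ChWAG* genes had a peak in 3 single-library lists, but in 2 at an overlap of 50% of both peaks, where the narrow pr2 peaks no longer count, and in 2 at a −log10 q of at least 5, where the pr2 call at *ChWAG1* is lost. Leaving out each list in turn left 2 of 2 lists by construction. At 50% of the single-library peak alone, an alternative chosen after seeing the data, the count was 3. The fold enrichment of *ChWAG2* over that of *ChWAG1*, 1.43 in the reproducible list, was 1.21 in the pr1 list and 1.28 in the pr2 list. Ranked by −log10 p, 4.56% of reproducible peaks were as high as *ChWAG2*; among exon peaks, 8.20% were as high as *ChWAG2* and 30.3% as high as *ChWAG1*. Scaling by the lowest expected pileup alone, chosen after seeing the data, took the whole-library over the pr1 ratio of *ChWAG2* to 1.14, against 1.31. The neighbours of *ChWAG2* came to 6 within 100 kb, 5 in the whole-library list and 3 in the pr2 list, against 2. Those of *ChWAG1* came to 2 within 100 kb, 2 in the whole-library list, 1 in the pr1 list and 1 when found in at least 2 single-library lists, against 0. The cause of these moves was not tested where none is named. The planned count of NAC core motifs at the summits was not run, for want of a matching genome. The pr2 list rests on 33 and 21 fragments at *ChWAG2* and *ChWAG1*, and its intervals are the widest of the lists.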
